A study of Mus musculus with 17 samples.

Results

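The imprinted genes followed here lie on mouse chromosomes 7 and 12, and the data are maps of contacts between chromatin regions marked by H3K27ac, the acetylated histone found at promoters and enhancers in use. The 10 genes were H19, Igf2, Cdkn1c, Kcnq1, Phlda2, Peg3, Ndn and Snrpn on chromosome 7 and Dlk1 and Meg3 on chromosome 12. A loop belonged to a gene if one of its anchors, the DNA fragments that a read pair joins, lay within 5 kb of an annotated start site of that gene on mm9. By this rule the 10 genes, of 29540 genes with an anchor in such a window, had 426 of the 1211657 loops. Of these loops 296 held 1 read pair and 25 held 5 or more.

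The cells were R1 mouse embryonic stem cells differentiated as hanging drop EBs and then kept for 4 days in 0.5 µM RA, which every library shared. HiChIP (proximity ligation with immunoprecipitation of H3K27ac) was measured in 12 libraries of the unsorted cells, called bulk, and in 5 libraries whose titles say cluster2, which the study describes as EpCAM and CD38 double positive cells collected in 5 independent sorting runs. The labels do not say which run gave which library, or that libraries came from separate cultures, so the p-values measure the spread between libraries, which may be technical. Between 65178 and 241202 read pairs lay in the loops of a bulk library and between 50508 and 118179 in those of a double positive library. The reads were not split by parental allele.

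Genomic imprinting means that a gene is used from the maternal or the paternal chromosome only, and imprinted genes sit in clusters that share enhancers and one differentially methylated control region. At H19 and Igf2 the protein CTCF binds the unmethylated maternal control region and keeps Igf2 from enhancers on the far side of H19. At the Kcnq1 domain the long noncoding RNA Kcnq1ot1, made from inside Kcnq1 on the paternal chromosome, silences Cdkn1c and Phlda2 on that chromosome. Dlk1 and Meg3 form a pair of the same kind, with Dlk1 used from the paternal and Meg3 from the maternal chromosome.

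The labels were set against marker genes by the same counts. Over all 19047 tested genes 48.5% were lower and 19% higher in double positive cells (edgeR quasi-likelihood test with Benjamini-Hochberg adjustment, threshold of 0.05 on the adjusted p). Of 7 tested neural markers 7 were lower, and of 9 tested endoderm markers 4 were higher and 1 was lower. Of 2 tested pluripotent markers Pou5f1 was higher (log2 fold change 1.08, adjusted p = 0.019) and Esrrb was lower, with 132 bulk and 0 double positive read pairs. Of 4 tested mesoderm or fibroblast markers Mesp1 (37 and 0) and Col1a2 (43 and 1) were lower. Of 2 trophoblast markers Elf5 (82 and 0) was lower, and neither of 2 tested muscle and heart markers passed. Esrrb, Mesp1 and Elf5 had no anchor in double positive loops. They entered the test through bulk alone, and all 5652 such genes were lower, so their calls say nothing about cell type. The 7 neural and 9 endoderm markers each had such an anchor. The sorting markers themselves, Epcam (log2 fold change 1.06, adjusted p = 0.101) and Cd38 (0.67, adjusted p = 0.176), did not pass the threshold of the edgeR fit. The summed neural markers ranged from 986.6 to 2364 CPM (counts scaled to a fixed library total, after TMM) in bulk and from 176.2 to 219.1 CPM in double positive libraries, with Neurod1 and Pou3f2 down to 0 in single double positive libraries. Bulk is a mixture, so fewer cells of a type and fewer contacts per cell cannot be told apart there, and the part of the neural cells in the differences below was not tested.

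All 686 bulk and 134 double positive read pairs of the 10 genes lay on 21 anchors at their start sites, of which 5 also took part in double positive loops. Those 5 belonged to Cdkn1c, Kcnq1, Peg3, Ndn and Dlk1. H19, Igf2, Phlda2, Snrpn and Meg3 had neither a double positive read pair nor an anchor in double positive loops. Of all 216081 anchors 15082 (6.98%) took part in double positive loops. The data list no loop without a read pair, and it is not stated which libraries' peaks gave the anchors of each group, so a missing anchor and a missing contact cannot be told apart. A count of 0 in the 5 libraries allows up to 7.33 CPM by library totals.

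Of the 10 genes, 9 had enough read pairs to test (at least 20 in all, with 1 in at least 5 libraries). In the edgeR fit over all genes 7 of the 9 were lower in double positive cells, none was higher, and Peg3 and Ndn did not pass. H19, Igf2, Phlda2 and Meg3, 4 of the 7, had no anchor in double positive loops and entered the test through bulk alone. So did 5652 of all tested genes, every one of them lower, and no p is given below for such genes. Of the 5 tested members with an anchor in double positive loops, Cdkn1c, Kcnq1 and Dlk1 were lower, with a median log2 fold change of -2.37 over the 5. Of the 13395 tested genes with such an anchor 26.7% were lower and 27.1% higher, with a median of 0.01. This division was made after the values were seen, and it does not set missing anchors apart for Kcnq1 and Dlk1. Loops between anchors that both groups used held 7 of the 82 bulk read pairs of Kcnq1 and 13 of the 214 of Dlk1. For Cdkn1c they held 73 of 145. They held all 5, 4 and 22 double positive read pairs of Kcnq1, Dlk1 and Cdkn1c. The calls and p-values of Kcnq1 and Dlk1 thus rest mostly on bulk loops with an anchor that double positive loops did not use. None of the members had an unadjusted p under 0.05 in the upward direction, and DESeq2 also called none higher. The median over all tested genes was -0.81. Counting only loops between anchors that both groups used, 1282 of 11949 genes were lower (10.7%) and 3094 higher (25.9%), with a median of 0.42. Of the members Cdkn1c (-2.70) was lower, Peg3 (0.70) did not pass and the others were too sparse to test. On these loops Cdkn1c had 73 bulk and 22 double positive read pairs, the latter against 18.5 at the bulk share by library totals. Peg3 had 27 and 94, the latter against 6.84. The Cdkn1c call on these loops therefore rests on TMM scaling. When libraries were scaled by their totals alone, the median of all genes moved up by 1.71 to 0.89, with 9469 genes higher and 6463 lower in place of 3625 and 9230.

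**Figure D1:**
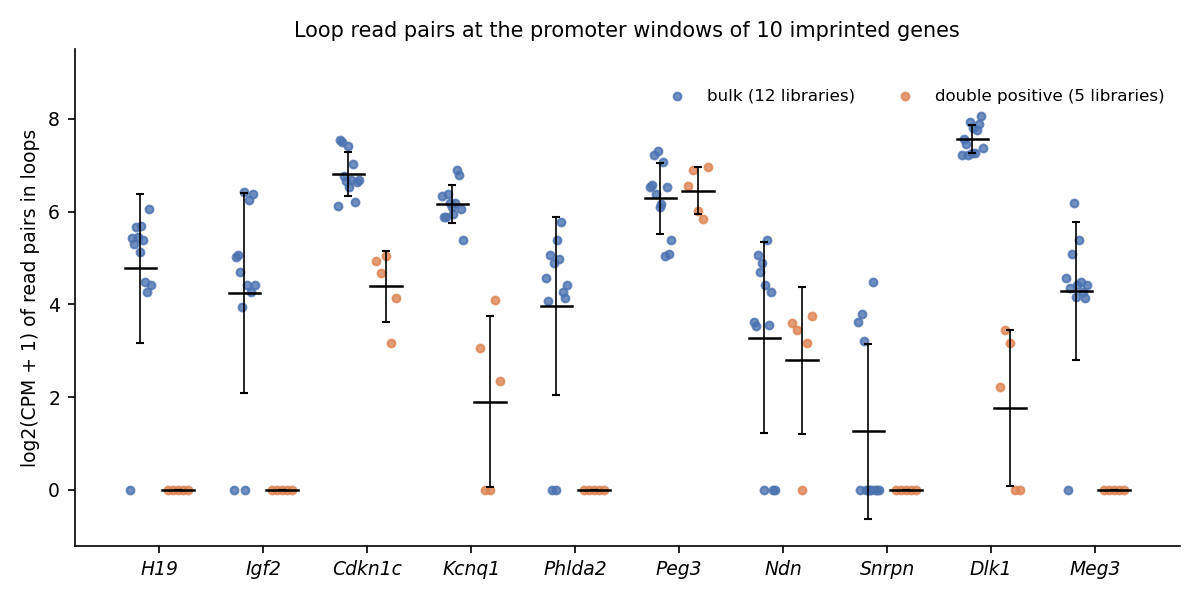
Normalized counts of loop read pairs, as log2(CPM + 1), at the start sites of the 10 genes in the 12 bulk and 5 double positive libraries. Points are libraries and black bars are mean and SD of the plotted values. Bulk and double positive libraries separate fully for Cdkn1c, Kcnq1 and Dlk1, overlap for Peg3 and Ndn, and H19, Igf2, Phlda2, Snrpn and Meg3 sit at 0 in every double positive library. How many of all tested genes separate in this way was not counted, so the separation is a description only.

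Levels were compared between genes as CPM per kb of anchor. In bulk the order was Dlk1 (22.6 ± 4.91, SD, n = 12), Cdkn1c (19.3 ± 6.58), Peg3 (10.4 ± 5.07), Kcnq1 (7.93 ± 2.34), Meg3 (5.76 ± 4.02), H19 (4.60 ± 2.32), Igf2 (4.19 ± 3.75), Ndn (3.79 ± 3.09), Phlda2 (3.09 ± 2.04) and Snrpn (1.04 ± 1.68). Only the steps from Cdkn1c to Peg3 and from Phlda2 to Snrpn were larger than both SDs. In double positive cells Peg3 came first with 10.9 ± 3.70 CPM per kb (SD, n = 5), followed by Cdkn1c (3.65 ± 1.63), Ndn (1.90 ± 1.13), Kcnq1 (0.593 ± 0.716) and Dlk1 (0.506 ± 0.532). There each step down to Kcnq1 exceeded both SDs, and Kcnq1 and Dlk1 did not differ beyond theirs. The length counts every anchor in a gene's window, also those that double positive loops did not use. Such loops used 1 of 4 anchors of Kcnq1, 1 of 3 of Dlk1, 1 of 2 each of Cdkn1c and Peg3, and the 1 of Ndn. The order in double positive cells depends on this length, and levels over the used anchors alone were not computed.

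H19 and Igf2 had read pairs in bulk cells only. H19 makes a noncoding RNA from the maternal chromosome and Igf2 encodes a fetal growth factor made from the paternal one. H19 had 42 bulk read pairs in 28 loops, with the lowest library at 0, the median at 3.5 and the highest at 8 read pairs, and 0 in each double positive library. Igf2 had 36 bulk read pairs in 26 loops, with a lowest, median and highest library of 0, 2.5 and 7, and again 0 in each double positive library. Bulk libraries at 0 make the groups overlap for both genes. At the bulk share of all read pairs the 5 double positive libraries would have held 10.6 read pairs of H19 and 9.12 of Igf2. Here and below such shares are by library totals. TMM scaling, used for CPM and fold changes, would give larger numbers, which were not computed. No fold is given for genes at 0 throughout a group.

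H19 is where a sequence feature of the domain falls on an anchor. Of the 42 read pairs, 29 came from the anchor at chr7:149765228-149768439, upstream of the H19 start sites on its minus strand. A fixed form of the CTCF motif core (14 letters, of which some may be any base) was searched on both strands. Inside the anchors of the 10 genes it gave 3 matches, all of them in the anchor named above. They are shown because the same anchor carried most H19 contacts. The capitals mark the matched core, the flanks are 8 bases each, and the sequence is that of the minus strand of mm9, at 2166, 2621 and 3891 bp upstream of the nearest H19 start site.
H19 site at chr7:149766214-149766227: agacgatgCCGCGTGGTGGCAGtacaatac
H19 site at chr7:149766669-149766682: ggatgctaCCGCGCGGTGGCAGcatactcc
H19 site at chr7:149767939-149767952: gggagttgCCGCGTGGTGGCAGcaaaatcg

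Only 6 of the 21502 anchors on chromosomes 7 and 12 (0.0279%) held a match at all, as did 12 of 32851 RefSeq promoters of 300 bases (0.0365%). None of the 14 RefSeq promoters of 7 of the genes held one. Other forms of the motif were not searched, so these low rates describe the fixed string and not how often CTCF sites occur in anchors. A match is a description of letters and was not tested for binding.

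The partners of H19 and Igf2 lay on one side. Of the bulk read pairs of H19, 38 (90.5%) led to anchors beyond its 3′ end, 2 to anchors between H19 and Igf2 and 2 to anchors beyond Igf2. Of those of Igf2, 32 (88.9%) passed over H19 to the same side, none led to an anchor between the genes and 4 led away from H19. No read pair in any of the 17 libraries joined H19 to Igf2, although their closest anchors lie 78.7 kb apart, and none did with windows of 10 kb. A count of 0 allows up to 1.86 CPM by library totals in bulk.

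**Figure D2:**
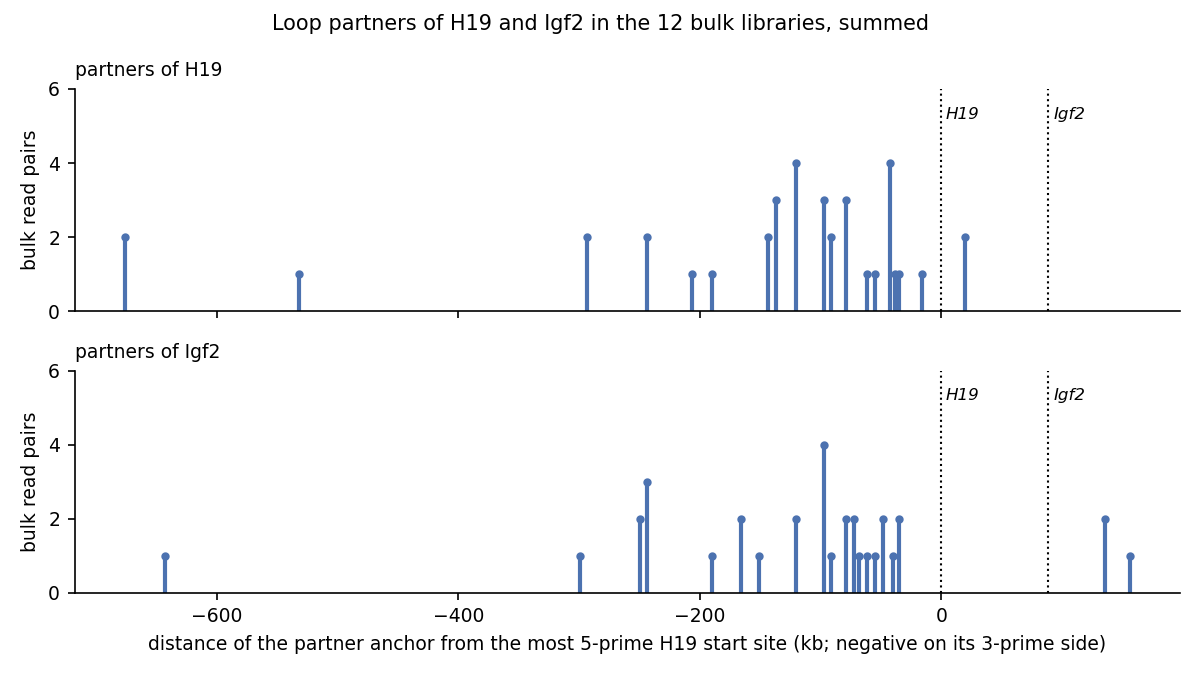
Bulk read pairs, summed over 12 libraries, of H19 (top) and Igf2 (bottom) by the distance of the partner anchor from the most 5′ H19 start site in kb. Each stem is 1 partner anchor, dotted lines mark the most 5′ start sites, and partners outside the plotted range are left out. In both panels most stems stand to the left of H19, on its 3′ side, and Igf2 has none between the dotted lines.

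H19 and Igf2 shared 9 distal anchors (anchors outside every window of the 10 genes), 7 of them between these genes alone and 1 each with Cdkn1c and Phlda2. The anchor with most read pairs was chr7:149664724-149668686 at Lsp1, a leukocyte actin-binding protein gene, with 3 to H19 and 4 to Igf2. As a single loop it was the strongest bulk loop of Igf2, with 4 read pairs, and tied with 3 others for H19, with 3. The same anchor was used in double positive cells, with 48 read pairs there and 89 in bulk. None of the 48 could lead to H19 or Igf2, since neither gene had an anchor in double positive loops. The leading double positive partner of the shared anchor was another Lsp1 anchor, 22.5 kb away, with 17 read pairs against 7 in bulk. Further shared anchors, at Lsp1 and at the muscle troponin gene Tnnt3, held 70 and 59 double positive read pairs, which could not lead to H19 or Igf2 either.

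At the Kcnq1 domain 3 members were counted. Cdkn1c encodes p57, an inhibitor of cyclin-dependent kinases, Kcnq1 a potassium channel subunit, and Phlda2 a growth-limiting PH domain protein of the placenta. Cdkn1c had 145 bulk read pairs, with a lowest, median and highest library of 4, 9.5 and 35. Its double positive libraries held 8, 5, 4, 1 and 4. As CPM the means were 117.2 ± 40.0 (SD, n = 12) and 22.2 ± 9.88 (SD, n = 5). The log2 fold change was -2.37 ± 0.34 (SE; adjusted p = 2.98e-07), or -1.56 against the median of all genes. With libraries scaled by their totals alone Cdkn1c was at -0.67 and did not pass (adjusted p = 0.0972).

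Kcnq1 had 82 bulk read pairs, with libraries from 2 through a median of 6.5 to 11, and double positive libraries of 2, 0, 0, 2 and 1. The means were 73.7 ± 21.7 and 5.51 ± 6.65 CPM, and the log2 fold change was -3.58 ± 0.48 (SE; edgeR adjusted p = 1.08e-07). Most of the bulk count, 59 read pairs, came from 1 anchor, chr7:150338433-150341457, which lies inside the gene near its last annotated start site. That anchor was not used in double positive loops. The anchor over the most 5′ start site held 12 bulk and all 5 double positive read pairs. On loops between anchors that both groups used, Kcnq1 had 7 bulk read pairs and 5 double positive ones, too few for a test. The bulk share by library totals would have given 1.77. TMM scaling, used for the fold change, would give a larger number, which was not computed. Phlda2 had 27 bulk read pairs in 10 of 12 libraries and none in double positive cells, where the bulk share would have given 6.84.

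Cdkn1c was joined to Kcnq1 by 2 loops with 13 bulk read pairs spread over 10 of 12 libraries. The stronger, over 306.7 kb between chr7:150338433-150341457 and the Cdkn1c anchor chr7:150644535-150648664, had 10 read pairs in 9 libraries. It was the strongest bulk loop of Kcnq1. Cdkn1c and Phlda2 were joined by 2 loops of 1 read pair each and Kcnq1 and Phlda2 by 1 loop of 1 read pair. Dlk1 and Meg3 were joined by 2 loops with 3 read pairs. These 7 loops, with 19 bulk read pairs, were the only ones between members, and none had a double positive read pair. None lay on anchors of both groups, and none passed the filter for a test.

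**Figure D3:**
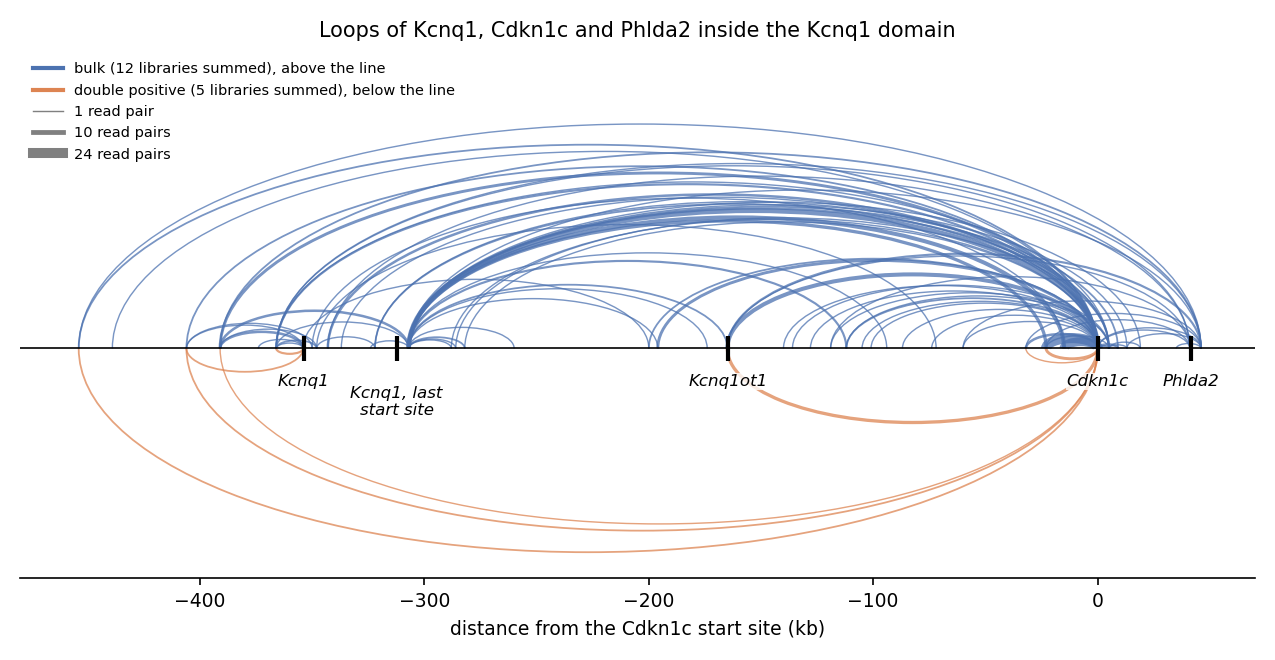
Loops of Kcnq1, Cdkn1c and Phlda2 by distance from the Cdkn1c start site in kb, for partners inside the plotted range. Arcs above the line are read pairs of the 12 bulk libraries and arcs below those of the 5 double positive libraries, with line width growing with the read pairs. The bulk arcs from the anchor near the last Kcnq1 start site to Cdkn1c have no counterpart below the line, where that anchor was not used. The arc from Kcnq1ot1 to Cdkn1c appears on both sides, with 8 and 6 read pairs.

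The 2 distal anchors with most read pairs to members lay between the end of Kcnq1 and Cdkn1c, with no annotated start site within 5 kb. The first, chr7:150623076-150625087, led to Cdkn1c, Kcnq1 and Phlda2 with 25, 6 and 1 bulk read pairs, and to Cdkn1c alone in double positive cells, with 5. The members took 21.9% of its 146 bulk and 20.8% of its 24 double positive read pairs. The second, chr7:150630325-150632908, led to Cdkn1c and Kcnq1 with 21 and 9 bulk read pairs, and none of its 8 double positive read pairs led to a member. The Kcnq1 and Phlda2 anchors that these distal anchors reached in bulk were not used in double positive loops.

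Both gave Cdkn1c loops that passed the filter and were tested among 5369 loops, of which 38.1% were higher and 22.4% lower in double positive cells. The loop to the first, 22.5 kb long, had 24 bulk read pairs, with libraries from 0 through a median of 1 to 8, and double positive libraries of 0, 2, 2, 0 and 1. The log2 fold change of this loop was -2.35 (edgeR adjusted p = 0.00045), whereas the median of all tested loops was 0.78. The loop to the second, 15.0 kb long, had 21 bulk read pairs, with libraries from 0 through 1 to 9, and 0 in each double positive library. It was called lower, but it passed the filter through bulk alone, bulk replicate 2 held 9 of the 21, and without bulk replicate 2, 3, 4 or 8 it was too sparse to test. With libraries scaled by their totals alone the first loop was at -0.21 and did not pass (adjusted p = 0.767).

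The strongest double positive loop of Cdkn1c led to the start of Kcnq1ot1, the noncoding RNA that silences this domain in cis. The RefSeq promoter of Kcnq1ot1 was found unchanged in mm9 at chr7:150482403-150482702, minus strand, inside the anchor chr7:150480782-150483975. It is shown, with CG dinucleotides (the sites of DNA methylation) in capitals, because it lies in a partner that both groups used.
Kcnq1ot1 promoter: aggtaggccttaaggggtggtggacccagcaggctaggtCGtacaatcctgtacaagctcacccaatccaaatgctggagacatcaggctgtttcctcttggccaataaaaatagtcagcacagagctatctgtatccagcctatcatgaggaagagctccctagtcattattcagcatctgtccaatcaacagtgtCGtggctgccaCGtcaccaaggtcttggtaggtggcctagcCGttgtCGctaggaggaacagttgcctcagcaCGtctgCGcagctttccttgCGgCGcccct

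It holds 9 CG, against a median of 7 over the RefSeq promoters, and 54.2% of them hold fewer. The loop to Cdkn1c spans 164.2 kb and had 8 bulk read pairs and 6 double positive ones, the latter as 3, 2, 0, 1 and 0 by library. It had too few for a test. Kcnq1 and Phlda2 reached the same anchor with 2 and 4 bulk read pairs, all from anchors not used in double positive loops, and none in double positive cells. Kcnq1ot1 itself, with 64 bulk and 38 double positive read pairs, did not pass the threshold (log2 fold change -0.50 ± 0.36, SE; edgeR adjusted p = 0.217). In double positive cells its anchor led most often to an anchor at Cd81 (7 read pairs), then to Cdkn1c and to the first distal anchor above (6 each).

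Shared anchors upstream of Kcnq1 were compared by where they led. The anchor chr7:150253303-150257775, at the start sites of Cd81, Trpm5 and Tssc4, had 16 bulk and 1 double positive read pair to Cdkn1c, Kcnq1 and Phlda2. It held 135 double positive read pairs in all, so 0.741% of them led to these genes against 11.2% of its bulk read pairs. In bulk, 4 and 1 read pairs led to Kcnq1 anchors and 2 to a Phlda2 anchor that double positive loops did not use. Of the 135, 87 led to the Cd81 anchor 14.7 kb away, against 15 in bulk. The shares are therefore not on a like footing, and their difference was not tested. At the nearby Trpm5 anchor chr7:150280220-150281985 the share was 21.4% of 14 double positive and 18.2% of 55 bulk read pairs. Kcnq1 had 2 double positive loops, to Trpm5 (1 bulk and 3 double positive read pairs) and to Cd81 (1 and 2). Of the 275 distal anchors joined to the 10 genes, 55 were shared by 2 or more of them, 19 of the 55 were used in double positive loops, and 10 had a double positive read pair to one of the genes.

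Peg3 did not differ beyond the spread between libraries. It encodes a zinc finger protein made from the paternal chromosome, next to a large cluster of zinc finger genes. Its promoter anchor is used in both groups, and its RefSeq promoter, at chr7:6683081-6683380 on the minus strand of mm9, is shown for that reason with CG in capitals. It holds 13 CG, and 62.1% of RefSeq promoters hold fewer.
Peg3 promoter: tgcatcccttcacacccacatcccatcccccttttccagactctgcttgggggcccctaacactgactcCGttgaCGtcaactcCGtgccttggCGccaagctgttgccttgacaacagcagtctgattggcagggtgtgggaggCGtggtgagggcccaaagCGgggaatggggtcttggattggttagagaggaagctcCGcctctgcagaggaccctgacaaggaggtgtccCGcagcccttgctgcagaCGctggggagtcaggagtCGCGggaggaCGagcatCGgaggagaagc

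Bulk libraries held from 2 through a median of 7.5 to 23 read pairs of Peg3, and double positive libraries held 25, 24, 8, 7 and 30. The means were 86.9 ± 42.2 CPM (SD, n = 12) and 91.0 ± 30.8 CPM (SD, n = 5), and the groups overlapped. The log2 fold change was 0.05 ± 0.30 (SE; edgeR adjusted p = 0.888), which lay 0.87 above the median of all genes. With libraries scaled by their totals alone it was 1.78 and passed (adjusted p = 2.22e-06). Among its 53 tested neighbours within 2 Mb, 6 were higher and 6 lower, with a median of 0.26.

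The partners of Peg3 were only partly shared. The 94 double positive read pairs lay in 18 loops and the 106 bulk ones in 59. All 94, but only 27 of the 106, lay on loops between anchors that both groups used. The numbers of loops are therefore not on a like footing. The strongest bulk loop, 189.1 kb to chr7:6868977-6872410, had 11 bulk and no double positive read pairs. Its partner anchor was not used in double positive loops. The strongest double positive loop, 48.8 kb to chr7:6729198-6731641, had 5 bulk and 20 double positive read pairs. Its double positive libraries held 5, 7, 2, 3 and 3, and no bulk library held over 2. It was higher in double positive cells (log2 fold change 1.47 ± 0.64, SE; adjusted p = 0.0367), or 0.68 above the loop median. The call did not hold with DESeq2 (adjusted p = 0.0694), nor without bulk replicate 1, 4, 7, 8, 9, 10, 11 or 12 or double positive replicate 4, with values from 1.14 to 1.38, and without double positive replicate 2 the loop was too sparse to test.

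Anchors at a gene named Zfp took part in 14 Peg3 loops, a grouping made after the values were seen. These loops held 10 of the 106 bulk read pairs (9.43%) and 20 of the 94 double positive ones (21.3%), the latter in 7 of the loops. Only 27 of the 106 bulk read pairs lay on loops between anchors that both groups used, against all 94 double positive ones. These shares are therefore not on a like footing, and their difference was not tested. They included Zfp667 (1 bulk and 6 double positive read pairs), Zfp418 (0 and 4), Zfp583 (2 and 3) and Zfp28 (0 and 3). Further partners were an anchor at the chloride transporter gene Clcn4-2 (2 and 10) and anchors at chr7:6789984-6792011 (5 and 14) and chr7:6314236-6316982 (4 and 11). The median span of the loops with read pairs was 199.97 kb in bulk and 420.9 kb in double positive cells. The bulk value includes loops on anchors that double positive loops did not use, and the difference was not tested.

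**Figure D4:**
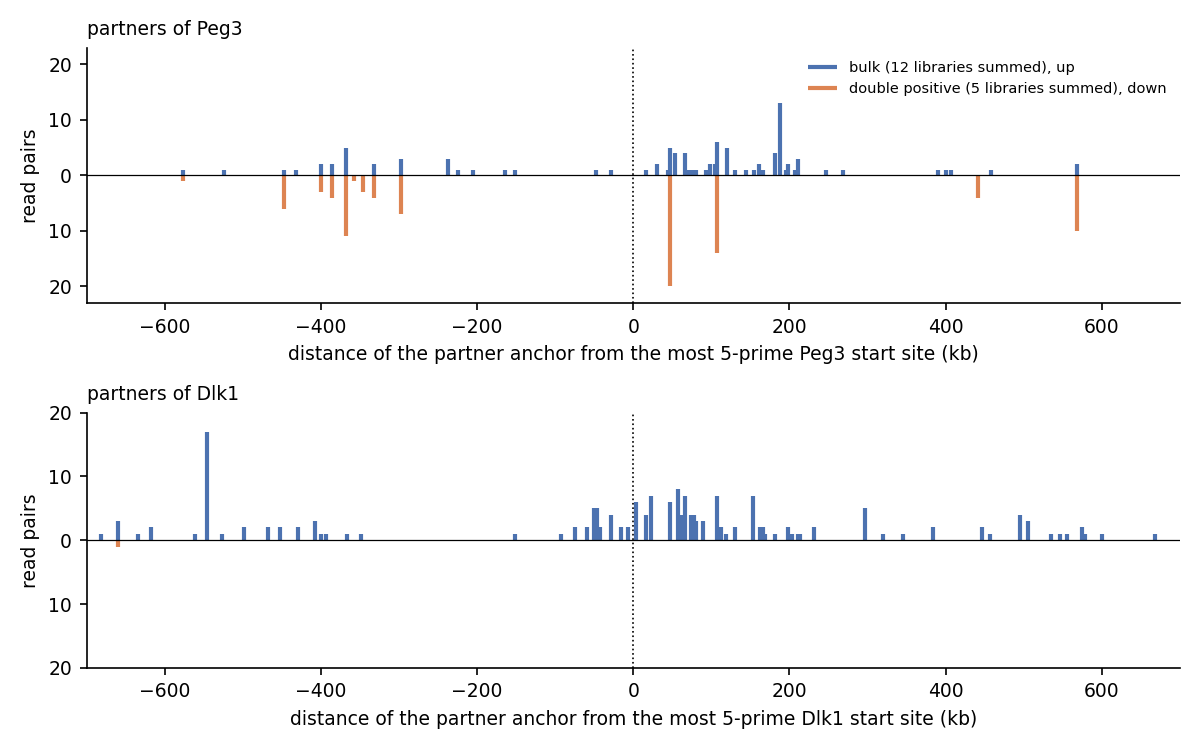
Read pairs of Peg3 (top) and Dlk1 (bottom) by the distance of the partner anchor from the most 5′ start site in kb, within the plotted range. Bars up are the 12 bulk libraries summed and bars down the 5 double positive libraries summed. Peg3 shows double positive bars at few positions, the longest with 20 read pairs, whereas Dlk1 shows 1 double positive read pair in the plotted range against a dense set of bulk bars.

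Dlk1 had the largest bulk count. It encodes a membrane-bound relative of the Notch ligands. Bulk libraries held from 8 through a median of 16.5 to 36 read pairs, 214 in all over 141 loops. Double positive libraries held 1, 2, 1, 0 and 0. The means were 192.6 ± 41.9 and 4.32 ± 4.54 CPM, and the log2 fold change was -5.21 ± 0.41 (SE; edgeR adjusted p = 1.02e-12). On loops between anchors that both groups used, Dlk1 had 13 bulk read pairs and 4 double positive ones. The bulk share by library totals would have given 3.29. TMM scaling, used for the fold change, would give a larger number, which was not computed. The other bulk read pairs of Dlk1 lay in loops with an anchor that double positive cells did not use. Of the genes with an anchor, 96.6% lay below Dlk1 in bulk and 55.2% in double positive cells. The latter rank rests on 4 read pairs and lies near the floor of the counts, where Kcnq1, with 5, was at 55.7%. The bulk read pairs came from 3 anchors with 98, 56 and 66 read pairs, 6 of which joined a pair of these anchors and count at both. Of the 3 anchors the double positive cells used the middle one, over the most 5′ start site. The RefSeq promoter inside it, at chr12:110690783-110691082 on the plus strand of mm9, holds 9 CG (capitals).
Dlk1 promoter: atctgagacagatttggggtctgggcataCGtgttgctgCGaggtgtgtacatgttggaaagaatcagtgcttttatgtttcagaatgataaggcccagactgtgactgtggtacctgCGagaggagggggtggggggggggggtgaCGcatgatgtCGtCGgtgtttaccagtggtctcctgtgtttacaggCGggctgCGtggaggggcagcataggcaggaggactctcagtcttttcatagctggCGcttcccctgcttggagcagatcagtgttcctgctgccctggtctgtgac

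The bulk partners of Dlk1 lay on all sides, with 75 read pairs below it, 65 between it and the end of Meg3 and 74 beyond. Its strongest partner was a 9784 bp anchor at chr12:110140234-110150017, 542.3 and 546.7 kb from 2 of the Dlk1 anchors, with 8 read pairs to each. Meg3 reached the same anchor with 1 read pair. In double positive cells that anchor had 50 read pairs, none to Dlk1 or Meg3. Of the Dlk1 and Meg3 anchors, double positive loops used only the middle one of Dlk1. The leading double positive partner of the 9784 bp anchor was the anchor at Wars and Wdr25, 12.9 kb away, with 20 read pairs against 9 in bulk. The 4 double positive read pairs of Dlk1 led to chr12:112229068-112231298 (2), to Ppp2r5c (1) and to Yy1 (1), over 660.6 to 1538 kb.

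Meg3, a maternally made noncoding RNA, had 26 bulk read pairs in 11 of 12 libraries and none in double positive cells. The bulk share would have given 6.58. Its strongest bulk loop led 615.6 kb to chr12:110163408-110165998, with 3 read pairs. Dlk1 and Meg3 shared 16 distal anchors, with 103 bulk and 1 double positive read pair.

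In the Prader-Willi region 2 members were counted. Ndn encodes necdin, a protein of nerve cells, and Snrpn a protein of the splicing machinery. Both are used from the paternal chromosome. Ndn had 21 bulk read pairs, with libraries from 0 through 1.5 to 5, and double positive libraries of 3, 2, 0, 1 and 3. The log2 fold change was -0.92 ± 0.61 (SE; edgeR adjusted p = 0.179), 0.11 below the median of all genes, and 0.71 with libraries scaled by their totals alone. Its strongest double positive loop led 29.0 kb to the neighbouring imprinted gene Magel2, with 2 bulk and 6 double positive read pairs, the latter in 4 of 5 libraries. A second led to Mkrn3, also imprinted, with 1 and 2. Snrpn had 6 bulk read pairs in 4 libraries and none in double positive cells. By library totals its bulk share would have given 1.52, under the 3 read pairs that a count of 0 allows. TMM scaling, used for the CPM, would give a larger number, which was not computed. Snrpn was too sparse to test.

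**Figure D5:**
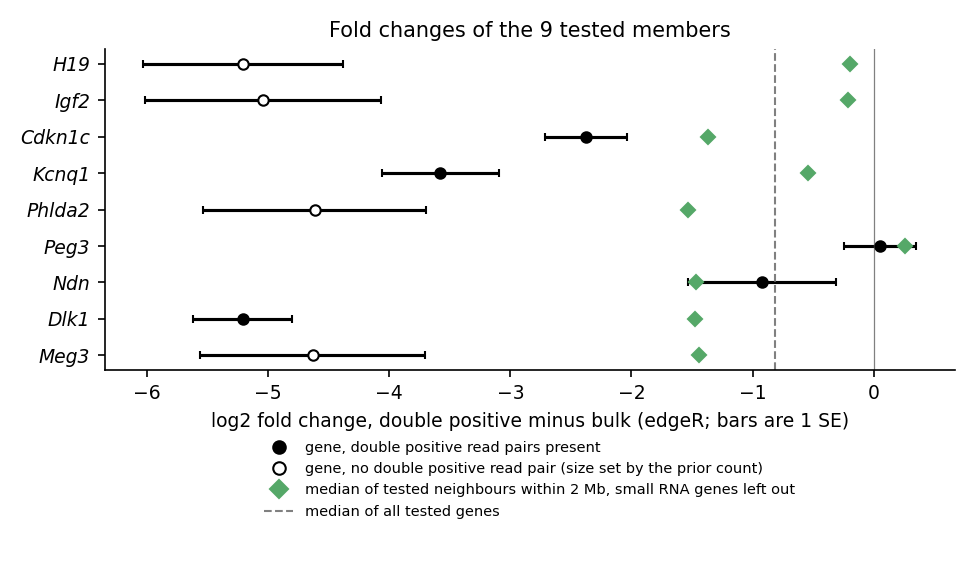
Fold changes (log2, double positive minus bulk) of the 9 tested genes with 1 SE, from edgeR. Open circles are genes with no double positive read pair, whose size depends on the prior count, diamonds the median of tested neighbours within 2 Mb without small RNA genes, and the dashed line the median of all tested genes. Peg3 and Ndn lie within 1 SE of the median of their neighbours, and Cdkn1c, Kcnq1 and Dlk1 lie to the left of both their neighbours and the dashed line.

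Neighbouring genes were counted in the same fit. Within 2 Mb of Dlk1 36 of 36 tested small RNA genes, which share anchors with each other, were lower, and of the other 48 tested genes 28 were lower and 1 was higher, with a median of -1.48. The medians without small RNA genes were -0.19 around H19, -0.21 around Igf2, -0.54 around Kcnq1, -1.37 around Cdkn1c and -1.53 around Phlda2. Cdkn1c, Kcnq1 and Dlk1 lay below the median of their neighbours, a difference that was not tested.

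Of 34 further imprinted or flanking genes of the same domains 23 were tested, with 13 lower (56.5%, against 48.5% of all tested genes), 1 higher (4.35%, against 19%) and a median of -1.45. Of the 16 with an anchor in double positive loops 6 were lower (37.5%, against 26.7%) and 1 was higher. The 6 lower genes also had anchors that double positive loops did not use. Among 14 tested around H19, Igf2 and Kcnq1, 8 were lower and 1 higher, 4 of the 8 with no anchor in double positive loops. Those named by smallest p were among the 4. Ctsd, the cathepsin D gene, had 73 bulk and 0 double positive read pairs, Mrpl23, a mitochondrial ribosomal protein gene, 67 and 0, and Tnni2, a muscle troponin gene, 38 and 0. The higher one was Cd81, a tetraspanin gene, at 0.47 ± 0.20 (SE; edgeR adjusted p = 0.0349). Near Peg3 the 1 tested gene, Zim1, had 62 bulk and no double positive read pairs, and no anchor in double positive loops. In the Prader-Willi region 1 of 3, Magel2, was lower (-1.47, adjusted p = 0.047).

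In the Dlk1 domain 3 of 5 were lower, 2 of them with no anchor in double positive loops. Those were the noncoding RNA gene Rian, with 206 bulk and 0 double positive read pairs, and the retrotransposon-derived gene Rtl1, with 111 and 0. Begain had 41 and 4 (log2 fold change -2.89, edgeR adjusted p = 0.000316). Wars (118 and 112) and Wdr25 (111 and 86) were at 0.11 and -0.16 and did not pass (edgeR adjusted p = 0.737 and 0.629).

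Of 18 imprinted genes on other chromosomes 14 were tested, with 10 lower (71.4%, against 48.5% of all tested genes), 1 higher (7.14%, against 19%) and a median of -2.28. Of the 11 with an anchor in double positive loops 7 were lower (63.6%, against 26.7%). Peg10 and Sgce, both among the 7, had identical double positive values (41 read pairs, 48.6 ± 35.4 CPM, SD), so their calls are not independent. Those with the smallest p were Gnas, which encodes a G protein subunit (665 and 111 read pairs, log2 fold change -2.34), the growth receptor adaptor Grb10 (291 and 29, -3.12) and Mest (169 and 28, -2.35). Double positive loops used 3 of 7 anchors of Gnas, 3 of 10 of Grb10 and 2 of 3 of Mest. Bulk read pairs on the unused anchors are part of these values. The higher gene was Zrsr1, related to a splicing factor, with 11 and 42 read pairs (2.03 ± 0.50, SE; edgeR adjusted p = 0.000543).

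Genes with a pattern most like that of Peg3 and Dlk1, the members with at least 200 read pairs, were sought by Pearson correlation of log2(CPM + 1) over the 17 libraries. For Peg3 they were 4930479M11Rik (r = 0.81), Dis3 (0.79) and Gopc (0.79). For Dlk1 they were Bcas1, Gm14486 and Mir135b (0.98 each), on chromosomes 2, 2 and 1. The 17 points fall into 2 groups, so these values describe the difference between bulk and double positive libraries as well as any spread within them.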

How the data were processed

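H3K27ac HiChIP was analysed in 12 bulk and 5 double positive libraries. The authors processed reads with HiC-Pro on mm9, used hichipper for peaks and loops, and left out replicates with few strong loops. The deposited values are raw counts of read pairs per loop. Reads carry no molecular identifiers, so intervals and floors cover counting error only.

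Anchors that overlapped between any of the 17 libraries were merged, giving 216081. Read pairs were summed over loops with an anchor within 5 kb of any GENCODE start site (NCBIM37), each loop once per gene. RefSeq promoters (GRCm38.p6) gave start sites only where all 300 bases occurred in mm9. The fit used R 4.3.3 and edgeR 4.0.16 (TMM, quasi-likelihood, Benjamini-Hochberg over all tested genes or loops, adjusted p under 0.05), for features with at least 20 read pairs and 1 in at least 5 libraries. Fold changes are double positive minus bulk. Tables used Python 3.11.15 and pandas 2.3.3. On simulated data with 4-fold changes the fit recovered 58% of 200 changed genes of 18436 tested and 28% of 200 changed loops of 4618 tested.

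The members and lists were chosen with earlier results of these data known. All 10 members were named, with their strongest loop in each group, each loop between them, the 5 strongest shared distal anchors and each loop past the threshold. List genes were named by smallest p, up to 3 per direction. Alternatives were DESeq2 1.42.0, TMMwsp, library size alone, other minimum counts, windows, spans and start sites, shared anchors, thinning, the replicate number as a block, chromosome 11 without its first part, and each library left out.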

Additional observations from a re-analysis of the deposited data

How the results depend on the processing

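In the fit as reported 7 members were lower. The count was 3 of 4 tested with at least 50 read pairs, 3 of 4 with libraries thinned to the smallest, and 1 of 2 (Cdkn1c, with Peg3 not passing) with shared anchors, where fewer genes could be tested. Library size alone gave 1 member higher (Peg3) and 6 lower. H19, Igf2, Phlda2, Kcnq1, Dlk1 and Meg3 were lower under every alternative in which they could be tested. For H19, Igf2, Phlda2 and Meg3, at 0 in double positive cells, that says nothing about stability. Kcnq1 and Dlk1 were too sparse to test with shared anchors. The settings that did test them kept bulk loops on anchors absent from double positive loops, so they are no check on that absence. Same-numbered bulk and double positive libraries did not deviate together (correlations from -0.018 to 0.012), so the numbers were not taken as pairs. With the replicate number as a block over 10 libraries 3 of 5 tested members were lower, as without the block, with 5498 and 5753 of all genes lower, 827 and 1142 loops higher and 429 and 486 loops lower. The member loops then gave 0 higher and 1 lower in both. Peg3 changed sign without passing at a minimum of 50 (-0.0493), with the block (-0.36) and in the same 10 libraries unblocked (-0.31). Leaving out single libraries gave Peg3 values from -0.0925 to 0.16, of which 5 of 17 lay below 0. Ndn changed sign with library size alone (0.71).

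Of the 3 tested member loops, 2 lower and 1 higher, library size alone left 1 lower, spans of at least 20 kb 1 lower, DESeq2 0 higher, and a minimum of 50, thinning and no filter 0 in either direction. Leaving out single libraries gave 1 to 2 lower and 0 to 1 higher, and from 1206 to 1924 loops higher in all. Over all genes, library size alone gave 9469 higher, and 5056 (minimum of 50), 1282 (shared anchors), 4144 (thinned) and 17137 (no filter) were lower. Over all loops, library size alone gave 4129 higher and 740 lower, a minimum of 50 gave 334 and 197, and thinning 1121 and 120, while spans of at least 20 kb left 413 lower, shared anchors 552 and no filter 44. With windows of 10 kb there were 22 loops between members in place of 7, and 77 shared distal anchors in place of 55. The cause was not tested where a setting did not change which features were tested. Most member loops hold 1 read pair, and depth limits every loop named here.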
